A study of Nematostella vectensis with 18 samples.

Results

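In sorted tentacle cells of the sea anemone Nematostella vectensis, a set of genes had higher levels in cells marked by an Ncol3 reporter than in unmarked cells of the same line, and differed little between cells with and without a Nep3 reporter. They number 150 of 23764 genes with any count. Members were chosen by measured values: the mean of log2(CPM + 1) per group, where CPM is a gene's count relative to its library's total after TMM scaling, a correction for differences in library composition. A gene had to reach a mean of 10 CPM in its highest group, differ by at least 1 between the Ncol3 gates, and differ by less than 0.5 in either direction between the Nep3 gates. This left 328 genes, and the 150 with the largest Ncol3 difference were taken. The Ncol3 and Nep3 differences of the members are therefore a description and carry no test.

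Cells came from dissociated tentacles of untreated adult polyps of 2 reporter lines, Ncol3::mOrange and Nep3::mOrange, each expressing a fluorescent protein under the regulatory sequence of the gene in its name, and each was sorted by fluorescence into positive and negative cells. The libraries of poly(A) RNA comprised 4 Ncol3-negative and 4 Ncol3-positive ones, and 5 of each gate in the Nep3 line (Nep3-negative and Nep3-positive). The series text calls them biological replicates. All groups carry an mOrange transgene, and no library came from animals without one. The labels do not say how many animals a library pools or whether replicates came from separate animals, so p-values measure only the spread between these libraries, which may be technical in part.

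Cnidocytes are the stinging cells of cnidarians; each holds a capsule with a coiled thread that is fired on contact. In Nematostella they include nematocytes, whose capsules carry venom, and spirocytes, whose threads adhere to prey. Ncol3 encodes a minicollagen, a structural protein of the capsule wall, and Nep3 encodes a toxin of nematocytes. Negative cells are all tentacle cells outside a gate and may include stinging cells without reporter signal. In bulk samples of sorted cells, fewer cells of a type and less RNA per cell cannot be told apart.

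Genes carry only NV2 numbers in the deposited table. Of 24537 such IDs, 0 matched the RefSeq gene table, so no symbol, function, position or sequence is given for any member. Cell types could therefore not be checked by marker genes. The reporter transcript mOrange2 checks only the sort gates. It was at 251, 213, 370.3 and 338 CPM in Ncol3-negative libraries and 685, 783, 1162 and 1272 CPM in Ncol3-positive libraries, replicates 1 to 4. In Nep3-negative replicates 1 to 5 it was at 36.6, 31.8, 45.3, 185 and 131 CPM, and in the positive ones at 625, 941, 547, 798 and 664 CPM. The gates did not overlap in either line. By edgeR's quasi-likelihood test the reporter was higher in positive cells of the Ncol3 line by 1.65 on the log2 scale (SE 0.47, Benjamini-Hochberg adjusted p = 0.0129). For the Nep3 line the value was 3.02 (SE 0.44, adjusted p = 2.78e-05). Total counts ranged from 5463324 to 15269119 per library. Ncol3-positive replicates 3 and 4 stood apart from replicates 1 and 2: their 20 highest genes held 33.97% and 34.9% of counts against 20.7% and 21.5%, and their TMM factors were 0.590 and 0.537 against 0.945 and 0.890.

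**Figure D1:**
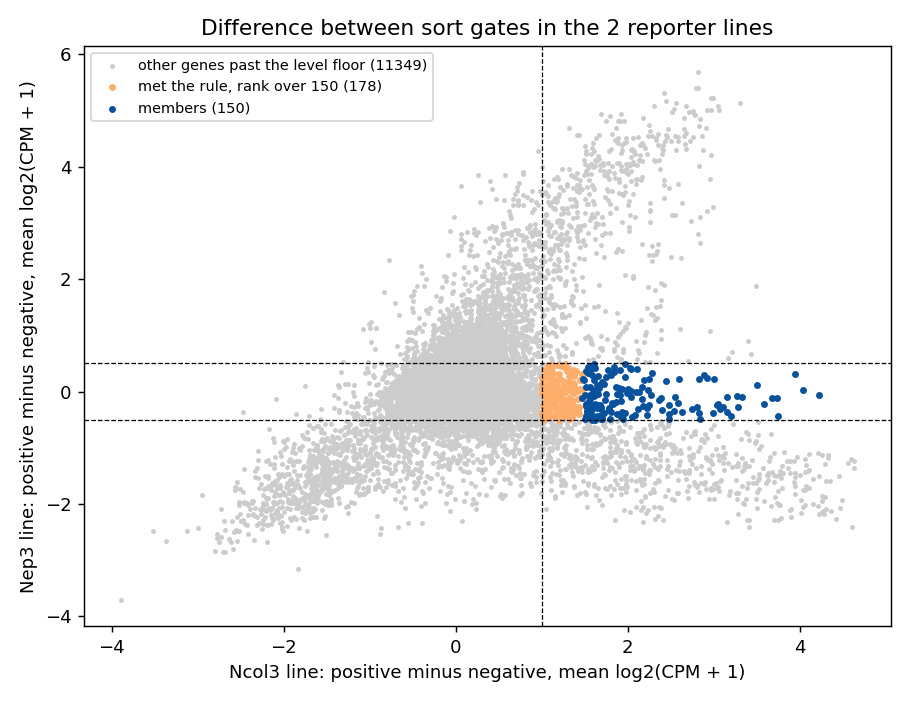
Each point is 1 of the 11677 genes with a group mean of at least 10 CPM; the horizontal axis gives the difference between the Ncol3 gates and the vertical axis that between the Nep3 gates, both as positive minus negative in mean log2(CPM + 1). Dashed lines mark the limits of the rule; the members (blue) lie between −0.50 and 0.49 on the vertical axis and from 1.47 to 4.23 on the horizontal axis.

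Among the 1513 genes past the level floor with an Ncol3 difference of at least 1, the 328 that met the rule sat between 632 whose Nep3 difference was −0.5 or less and 553 whose Nep3 difference was 0.5 or more. The plot of gate differences in both lines shows no gap at these limits, so the members are a slice of a continuous spread. Their Ncol3 difference had a median of 1.87, and it reached 2 in 61 members and 3 in 19. The Nep3 difference had a median of −0.12 and was below 0 in 97 members and above 0 in 53. The last members by rank were NV2.18780 (1.49), NV2.12537 (1.48) and NV2.17252 (1.47), all Ncol3 differences in log2(CPM + 1), and just outside lay NV2.18638 (1.46), NV2.5910 (1.46) and NV2.10470 (1.46). At the other limit, NV2.6698 and NV2.12692 were inside with Nep3 differences of −0.50 each, and NV2.9377 (−0.50) and NV2.21031 (0.52) were outside.

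Summed over the members, the level set the Ncol3-positive libraries apart from the other 3 groups. The members together held 23975, 24598, 51137 and 56747 CPM in Ncol3-positive replicates 1 to 4. In Ncol3-negative replicates 1 to 4 they held 6210.4, 5970.0, 11986 and 12466 CPM. Every Ncol3-positive library was above every other library. In the Nep3 line the sum was 11493 ± 2373 CPM in negative (SD, n = 5) and 11040.0 ± 635 CPM in positive libraries (n = 5), and the gates overlapped. Nep3-negative replicate 5 had the highest sum of that line with 15352 CPM and Nep3-negative replicate 3 the lowest with 9690 CPM. Without any scaling, the members took 2.26%, 2.19%, 3.01% and 3.05% of all counts in Ncol3-positive libraries and 0.757%, 0.777%, 1.45% and 1.49% in Ncol3-negative libraries. In the Nep3 line the share lay between 0.996% and 1.55% in negative and between 0.970% and 1.27% in positive libraries.

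**Figure D2:**
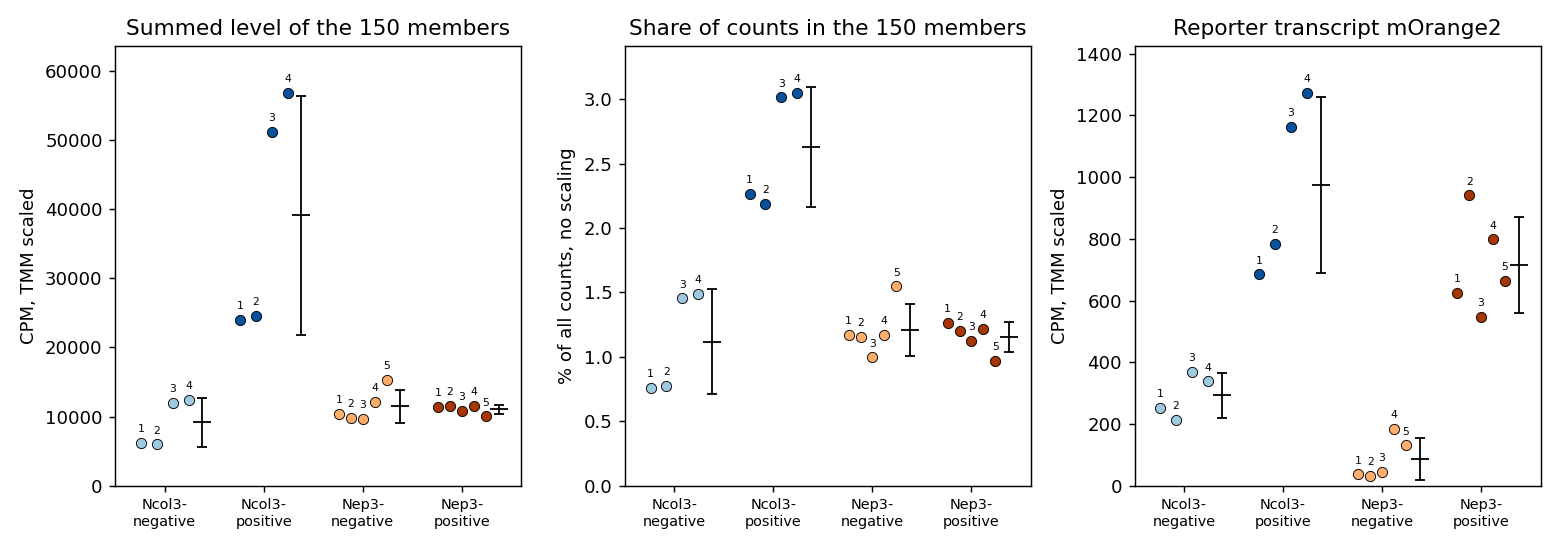
Points are libraries, numbered by replicate, with the group mean and SD beside them, for the summed level of the members in CPM (left), their share of all counts in percent without scaling (middle) and mOrange2 in CPM (right). In the left and middle panels the 4 Ncol3-positive libraries lie above all others, at 2.19% of counts or more, while the Nep3 gates overlap; in the right panel the gates are apart in both lines.

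The member with the largest Ncol3 difference was NV2.13261. It was at 7.35, 4.04, 18.7 and 13.4 CPM in Ncol3-negative and at 118, 108, 294 and 378 CPM in Ncol3-positive replicates 1 to 4. In the Nep3 line it was at 28.9, 30.0, 29.9, 31.1 and 52.5 CPM in negative and at 28.7, 32.1, 34.7, 33.6 and 32.7 CPM in positive replicates 1 to 5. All 10 Nep3 libraries thus lay above the highest Ncol3-negative and below the lowest Ncol3-positive library. Its fitted log2 fold change was 4.27 (SE 0.47) between the Ncol3 gates and −0.13 between the Nep3 gates, with a 95% interval from −0.90 to 0.65. The fit draws its estimate of spread from all 18 libraries, so SEs and intervals in either line also carry the spread of the other.

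NV2.9120 had the same order of groups. Its levels were 8.49, 8.07, 12.2 and 16.7 CPM in Ncol3-negative libraries and 107, 124, 292 and 368 CPM in Ncol3-positive libraries. In Nep3-negative libraries they were 29.9, 26.8, 44.1, 67.1 and 49.2 CPM and in Nep3-positive libraries 36.7, 46.5, 39.8, 47.3 and 40.5 CPM. Again no Nep3 library reached into either Ncol3 group. Its fitted log2 fold changes were 4.21 (SE 0.41) in the Ncol3 line and −0.08 (95% interval −0.75 to 0.59) in the Nep3 line.

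NV2.3135 varied more within groups. It was at 4.34, 5.93, 26.2 and 31.8 CPM in Ncol3-negative and at 113, 92.4, 381 and 451 CPM in Ncol3-positive libraries. Levels in Nep3-negative libraries were 21.8, 25.03, 36.9, 43.1 and 62.8 CPM, and in Nep3-positive libraries 37.9, 33.97, 42.1, 68.2 and 45.6 CPM. Nep3-negative libraries here overlapped Ncol3-negative replicates 3 and 4. Its Nep3 log2 fold change of 0.23 had a wide 95% interval, from −0.95 to 1.41. A 2-fold difference between the Nep3 gates was within this interval, which also carries the spread between the Ncol3 libraries.

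The other 5 of the 8 members with the largest Ncol3 difference repeated this order at lower levels. NV2.11028 was at 40.3, 40.6, 107 and 112 CPM in Ncol3-positive libraries, against 2.71, 3.78, 6.94 and 7.98 CPM in the negative ones. It was at 10.7, 12.3, 20.9, 22.3 and 29.1 CPM in Nep3-negative and at 17.6, 17.5, 19.3, 22.4 and 20.6 CPM in Nep3-positive libraries. For NV2.11028, NV2.3485 and NV2.13307 the Nep3 libraries lay above every Ncol3-negative and below every Ncol3-positive library. For NV2.17401 and NV2.5190 they overlapped the Ncol3-negative libraries. Over all 8, Ncol3-negative means lay between 4.83% and 7.13% of the Ncol3-positive means, which their choice by the largest Ncol3 difference favours. For all 150 members this share had a median of 26.0% and ran up to 65.3%, and for mOrange2 it was 30.1%.

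**Figure D3:**
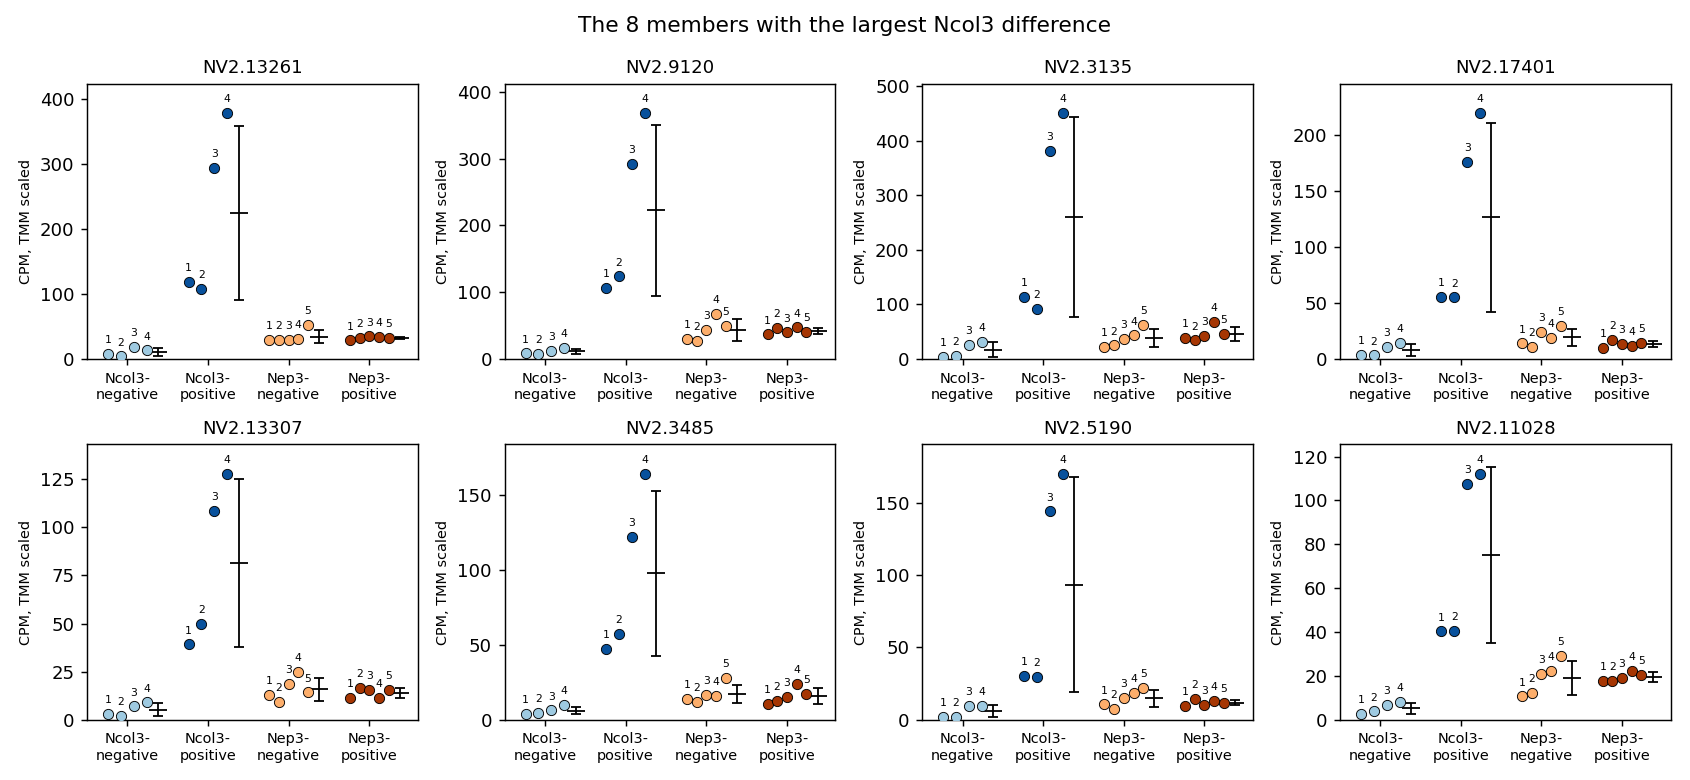
Each panel shows 1 of the 8 members with the largest Ncol3 difference; points are libraries, numbered by replicate, on an axis of CPM from 0, with the group mean and SD beside them. In every panel, on TMM-scaled values, the Ncol3-positive libraries are highest and replicates 3 and 4 exceed replicates 1 and 2; NV2.13261 is at 225 CPM on average in Ncol3-positive cells and at 34.5 and 32.3 CPM in the Nep3 groups.

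The members that took the largest part of the counts are given next; CPM is not divided by gene length, so levels are compared between libraries and not between genes. NV2.24159 was at 250.2, 238, 638 and 583 CPM in Ncol3-negative and at 2017, 1997, 4956 and 5273 CPM in Ncol3-positive libraries. In the Nep3 line it was at 937, 819, 675, 881 and 1066 CPM in negative and at 805, 727, 780.0, 749.6 and 676 CPM in positive libraries. Its Nep3 levels all exceeded the Ncol3-negative ones and stayed below the Ncol3-positive ones, as for NV2.13261. NV2.14941 had the same order, at 1752 ± 933 CPM in Ncol3-positive and 203 ± 83.5 CPM in Ncol3-negative libraries (SD; n = 4 in each group), with 455 ± 84.2 and 383 ± 49.7 CPM in the Nep3 groups (n = 5 each).

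For 3 other members with high counts, NV2.9990, NV2.9989 and NV2.10343, the Nep3 line lay within the range of Ncol3-negative cells. NV2.9990 was at 449, 414, 1263 and 1318 CPM in Ncol3-negative and at 1758, 2062, 3486 and 4084 CPM in Ncol3-positive libraries. In Nep3-negative libraries it was at 518, 423, 601, 818 and 1269.8 CPM and in Nep3-positive libraries at 891, 975, 744, 962 and 747 CPM. All 10 Nep3 libraries lay within the range of the Ncol3-negative ones. NV2.10343 had the same order, with 681 ± 345 CPM in Nep3-negative libraries and 767 ± 82.0 CPM in Nep3-positive libraries (SD; n = 5 in each group), against 790.0 ± 458 CPM in Ncol3-negative libraries and 2356 ± 1326 CPM in Ncol3-positive libraries (n = 4). Ncol3-positive replicate 1 (1063 CPM) was below Ncol3-negative replicates 3 and 4 (1249.5 and 1117 CPM) for this gene, so its gates overlapped.

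In the fit of all 18 libraries over 18976 genes, 148 of the 150 members passed an adjusted p of 0.05 as higher in Ncol3-positive cells (edgeR). Of all genes tested, 14.8% did. Nothing is read from this count, since the rule used the same contrast. The fitted log2 fold changes ran from 0.55 to 4.27 with a median of 1.85, against −0.05 for all genes. In 142 members every Ncol3-positive library was above every Ncol3-negative one, which was so for 15.8% of all genes tested.

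The 2 members that did not pass, named after their values were seen, were NV2.18396 and NV2.8260. NV2.18396 was at 4.16, 9.33, 8.91 and 117 CPM in Ncol3-negative and at 25.05, 74.6, 74.3 and 39.0 CPM in Ncol3-positive libraries. Negative replicate 4 was thus above all positive libraries. The log2 fold change of 0.55 (SE 0.83) became 2.79 without that library and passed the test. NV2.8260 was at 15.9, 22.6, 45.8 and 92.0 CPM in Ncol3-negative and at 87.1, 95.4, 94.2 and 139 CPM in Ncol3-positive libraries. Negative replicate 4 was again the highest of its group, and the log2 fold change of 1.16 (SE 0.46) was 1.81 and passed without it. NV2.8260 also passed without Nep3-negative replicate 5, with nearly the same value of 1.14.

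Between the Nep3 gates the median log2 fold change of the members was −0.20, against −0.02 for all genes. For 106 of the 150 the 95% interval lay wholly between −1 and 1, and for the other 44 a 2-fold difference was within it. These intervals rest on a spread estimated over both lines, so their width is not that of the Nep3 libraries alone. The test called 9 members, of which 8 were lower and 1 higher in Nep3-positive cells, where 37.8% of all genes were called, 19.2% lower and 18.6% higher. Nothing is read from this contrast either, as the rule used it. In 1 member every Nep3-positive library was above every negative one and in 9 every one was below, against 15% and 13.9% of all genes tested. The count depended on single libraries: it was 5, 4, 4 and 3 without Nep3-negative replicates 1, 3, 4 and 5, and 3, 4 and 5 without Nep3-positive replicates 1, 4 and 5. It was higher in other fits, at 25 with only the groups compared and at 30 and 27 with only Ncol3 replicates 1 and 2 or 3 and 4. With the replicate number as a block, given further below, it was higher as well. The share of all genes called in these other fits is not given here, so the counts show only how far the number of members moved. The member called higher, NV2.2739, named after its values were seen, was at 33.7, 28.2, 22.6, 31.2 and 28.5 CPM in Nep3-negative and at 44.4, 36.2, 37.4, 38.6 and 35.0 CPM in Nep3-positive libraries. Every positive library of that line exceeded every negative one, a shift of 0.37 on the log2 scale (SE 0.14). NV2.11615 was on the other side, with 39.3, 40.1, 40.0, 40.9 and 62.4 CPM in negative and 36.1, 24.8, 23.4, 35.6 and 37.2 CPM in positive libraries and a log2 fold change of −0.53 (SE 0.16).

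The interaction, which compares the gate difference of one line with that of the other, passed for 133 members, each with the smaller difference in the Nep3 line. Over all genes 11.7% passed in that direction. This follows in large part from the rule. For the other 17 members a difference between lines was not shown, and a missed threshold does not show that the lines were alike.

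The same measure was then taken in libraries that had no part in a choice of genes. The rule, applied to replicates 1 and 2 of each group alone, gave 197 genes, and the 150 with the largest Ncol3 difference were followed in the remaining replicates. There, 133 of the 150 passed as higher in Ncol3-positive cells (edgeR, adjusted p under 0.05), against 12.6% of all genes, and the median difference in log2(CPM + 1) was 2.01. The Ncol3 difference stayed at 1 or more for 129 of the 150. The Nep3 difference kept its limit less often in these replicates. It stayed within 0.5 for 75 of the 150, its median was −0.44, and 62 passed as lower and 7 as higher in Nep3-positive cells, against 16.1% and 16.2% of all genes. In all, 64 of the 150 kept both limits. The share of all genes within these limits in the same replicates is not given here, so the counts that kept them have no background beside them. The interaction passed for 132, with the smaller gate difference in the Nep3 line, against 11.3% of all genes. Nep3-positive cells were lower than Ncol3-positive cells in 144, against 15.8% of all genes.

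The reverse choice, in replicates 3 and up, gave 377 genes, and 150 were followed in replicates 1 and 2. Of these, 141 passed as higher in Ncol3-positive cells, against 12.6% of all genes, with a median difference of 1.49. The Ncol3 difference stayed at 1 or more for 103. The Nep3 difference stayed within 0.5 for 111, with a median of 0.06; 25 passed as higher and 11 as lower in Nep3-positive cells, against 16.4% and 16.3% of all genes. Both limits were kept by 71. Here too the share of all genes within the limits is not given. The interaction passed for 108 in the direction of a smaller difference in the Nep3 line, against 9.74% of all genes, and Nep3-positive cells were below Ncol3-positive cells in 118, against 14.2%. Both choices used groups of 2 or 3 libraries and shared 84 and 89 genes with the 150 members. With library size alone, fewer genes met the rule: 119 in replicates 1 and 2 and 62 in replicates 3 and up. Of these, 84 and 61 passed as higher in Ncol3-positive cells of the other replicates. The share of all genes that passed under that scaling is not given here.

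The level of the members in the Nep3 line was placed between the Ncol3 groups, with 0 for the mean of Ncol3-negative and 1 for that of Ncol3-positive libraries on the log2(CPM + 1) scale. This position had a median of 0.25 and ran from −0.70 to 0.59. It was below 0.25 in 76 members and from 0.25 to 0.75 in 74, and it was below 0 in 24 of the first set. Members with the higher position had the larger Ncol3 difference, with a median of 2.26 against 1.68. Since the Ncol3 means enter both quantities, this is a description only.

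**Figure D4:**
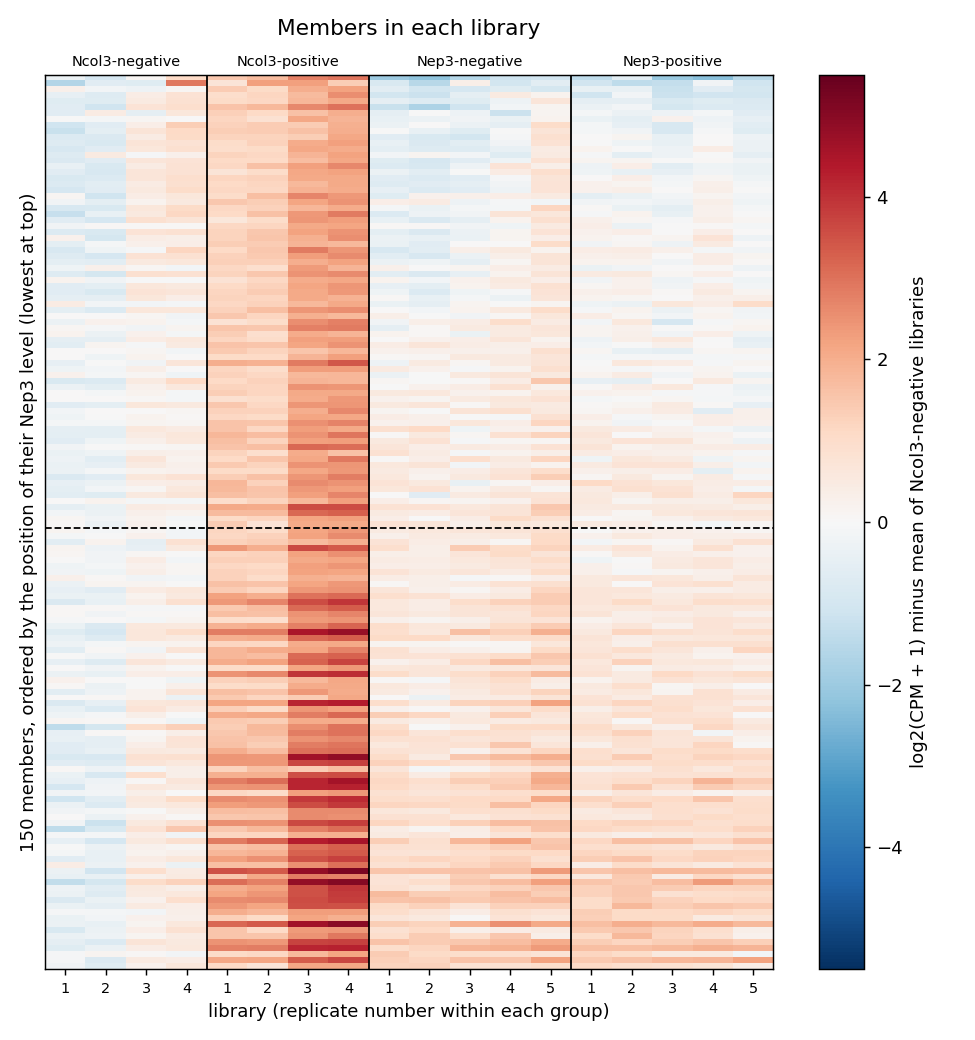
Rows are the 150 members, columns the 18 libraries by group and replicate, and colour gives log2(CPM + 1) minus the mean of the Ncol3-negative libraries. Rows are ordered by the position of the Nep3 level, and the dashed line marks 0.25: 76 members above it have Nep3 levels near or below those of Ncol3-negative cells, and the 74 below it have Nep3 levels, averaged over both gates, between the Ncol3 groups.

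Both reporter-positive populations are labelled as cnidocytes, and they differed in these genes. Nep3-positive cells had lower levels than Ncol3-positive cells in 148 members (edgeR, adjusted p under 0.05), with a median log2 difference of −1.70, against 16.5% of all genes called in that direction and a median of 0.11. In 144 members the libraries of the positive populations did not overlap, with Nep3-positive below Ncol3-positive, against 13.8% of all genes tested. These libraries also chose the members, and a gene with a large Ncol3 and a small Nep3 difference must show this unless the negative populations differ. The line and the reporter cannot be told apart in this comparison.

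NV2.5187 had the largest difference between the positive populations. It was at 15.8, 19.7, 41.2 and 46.0 CPM in Ncol3-positive and at 1.30, 3.13, 0.507, 0.258 and 1.15 CPM in Nep3-positive libraries, a log2 difference of −4.60 (SE 0.59). It was also lower in Nep3-negative libraries, at 0.543, 0.337, 1.09, 1.75 and 1.92 CPM, than in Ncol3-negative libraries, at 3.91, 2.27, 5.62 and 12.1 CPM. Every library of the Nep3 line except Nep3-positive replicate 2 was below every library of the Ncol3 line for this gene. NV2.17401 (−3.17, SE 0.49) and NV2.15069 (−2.97, SE 0.39) followed in size of the log2 difference. NV2.15069 was low throughout the Nep3 line, at 2.98 ± 1.01 CPM in negative and 1.80 ± 0.600 CPM in positive libraries (SD, n = 5 each), and reached 9.10, 6.79, 23.4 and 19.2 CPM in Ncol3-positive libraries.

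At the other end NV2.9010, NV2.25707 and NV2.9119 had the smallest differences between the positive populations. NV2.25707 was at 201, 146, 355 and 362 CPM in Ncol3-positive and at 185, 192, 163, 131 and 85.3 CPM in Nep3-positive libraries, and these groups overlapped. Its log2 difference of −0.77 (SE 0.33) did not pass, and neither did that of NV2.24336 (−1.38, SE 0.54), which was named after its values were seen. NV2.9010 was at 27.3, 22.6, 49.7 and 42.8 CPM in Ncol3-positive and at 27.6, 22.7, 23.0, 15.2 and 17.6 CPM in Nep3-positive libraries, a log2 difference of −0.70 (SE 0.22) that passed although the groups overlapped.

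Between the negative populations of the lines the members were more often higher in Nep3-negative cells. The test called 33 members higher and 2 lower in Nep3-negative than in Ncol3-negative cells, against 5.12% and 3.38% of all genes, and the median log2 difference was 0.52, against 0.02. All 33 were among the 74 members with the higher position. This follows in large part from how the position is computed, since the levels of both negative populations enter it. A choice of genes low in Ncol3-negative libraries favours this direction, so the genes chosen in other replicates are set beside it. Of those chosen in replicates 1 and 2, 36 were called higher and 3 lower in the remaining replicates, against 3.49% and 2.28% of all genes; of those chosen in replicates 3 and up, 67 were higher and 4 lower in replicates 1 and 2, against 8.4% and 6.76%. In either direction 35 members were called, against 8.5% of all genes, and this count depended on the Ncol3 replicates used. It was 79 with only Ncol3 replicates 1 and 2 and 22 with only replicates 3 and 4. It fell from 35 to 12, 13 and 21 without Ncol3-negative replicate 1, Ncol3-negative replicate 2 and Nep3-negative replicate 5. The share of all genes called in each of these fits is not given here, so nothing about the members is read from the changes.

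The largest differences between the negative populations were those of NV2.9120 (1.95, SE 0.37), NV2.11028 (1.87, SE 0.40) and NV2.13261 (1.66, SE 0.42), all log2 differences with Nep3-negative cells higher and all with the libraries given above. In the opposite direction, NV2.5187 differed by −2.30 (SE 0.60) and NV2.13056 by −0.97 (SE 0.25); these are the 2 members called lower. NV2.18396 lay between them at −1.88 (SE 0.82), did not pass (edgeR adjusted p = 0.192), and includes the high Ncol3-negative replicate 4 given above. NV2.13056 was at 9.40, 6.68, 6.13 and 8.29 CPM in Ncol3-negative and at 4.71, 3.25, 3.5003, 4.38 and 3.39 CPM in Nep3-negative libraries, with no overlap, and at 4.26 ± 1.24 CPM in Nep3-positive (SD, n = 5) and 27.4 ± 10.1 CPM in Ncol3-positive libraries (n = 4).

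Members differed between replicates 1 and 2 and replicates 3 and 4 of the Ncol3 line, by an amount that depended on the scaling. With TMM, in 146 of the 150, Ncol3-positive replicates 3 and 4 were both above replicates 1 and 2, which was so for 29.2% of all genes tested. In 104 members the same held among Ncol3-negative libraries, against 17.2% of all genes, and 103 showed both. With library size alone the counts were 106 in positive and 99 in negative libraries, against 6.29% and 13.5% of all genes. The share of counts that the members took in positive libraries, given above, differed less between these replicates than their scaled sum. The reporter transcript mOrange2, higher in replicates 3 and 4 of both gates with TMM, was with library size alone at 647, 696, 685 and 684 CPM in Ncol3-positive libraries, which did not separate the replicates. In Ncol3-negative libraries it was then at 307, 277, 449.4 and 403 CPM, with replicates 3 and 4 still higher.

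Whether the difference between the gates was larger in one pair of replicates also depended on the scaling. With TMM its median over the members was 1.83 in replicates 1 and 2 and 2.09 in replicates 3 and 4, in log2(CPM + 1). It was at least 1 in 144 and 146 members and above 0 in both pairs for all 150. It was larger in replicates 3 and 4 for 103 members. With library size alone the median was 1.41 in replicates 1 and 2 and 1.02 in replicates 3 and 4, and the difference was larger in replicates 3 and 4 for only 52 members. It was then above 0 in both pairs for 145. Summed over the members, the log2 ratio of positive over negative cells was 1.99 with replicates 1 and 2 and 2.01 with replicates 3 and 4, each with its own TMM scaling, and 2.07 with all libraries. With library size alone the log2 ratio of the mean sums was 1.54 and 1.04. The values with TMM are differences between mean log2 sums, so these are not the same measure.

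**Figure D5:**
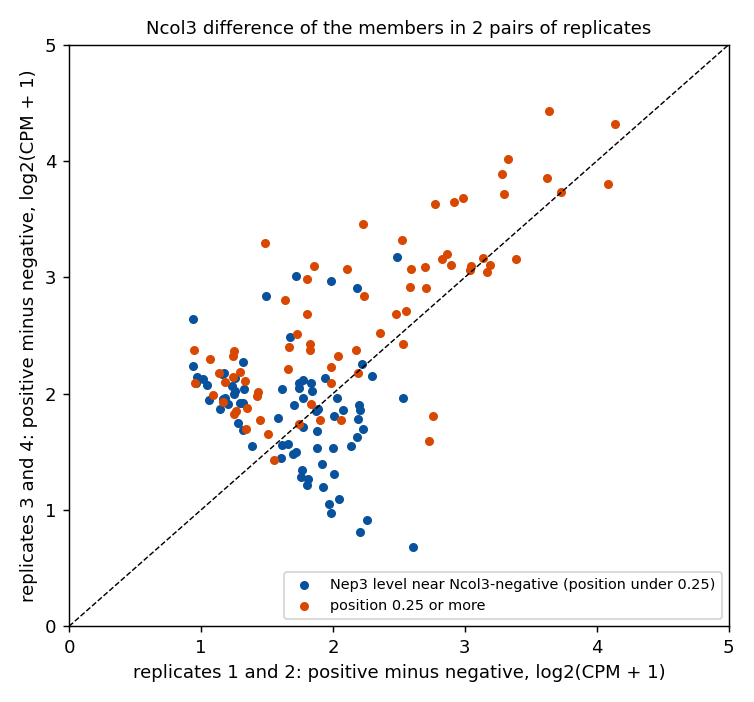
Each point is a member; the axes give its difference between Ncol3-positive and Ncol3-negative cells in log2(CPM + 1) in replicates 1 and 2 (horizontal) and in replicates 3 and 4 (vertical), and the dashed line marks equal values. With the TMM scaling plotted, 103 of the 150 members lie above the line, against 52 with library size alone; those with Nep3 levels near Ncol3-negative cells (blue) include the members farthest below it.

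NV2.4218, NV2.23119 and NV2.7256 had the largest excess in replicates 3 and 4 with TMM. NV2.4218 was at 14.5, 17.5, 48.9 and 57.0 CPM in Ncol3-positive libraries while Ncol3-negative libraries stayed at 5.06, 5.04, 4.53 and 4.45 CPM. Its difference was 1.48 in the first and 3.29 in the second pair of replicates. NV2.7256 had the same form, with 61.1, 60.4, 163 and 171 CPM in Ncol3-positive and 30.1, 32.04, 28.6 and 34.5 CPM in Ncol3-negative libraries. In both genes the positive libraries of replicates 3 and 4 were the higher ones, and the negative libraries did not follow.

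NV2.18396, NV2.8260 and NV2.8261 had the largest excess in replicates 1 and 2 with TMM. For NV2.8261 the Ncol3-negative libraries were at 3.55, 6.31, 16.4 and 21.7 CPM and the Ncol3-positive ones at 26.4, 26.8, 31.9 and 41.6 CPM. Its difference was 2.26 in replicates 1 and 2 and 0.91 in replicates 3 and 4, and here the negative libraries separated the replicates more than the positive ones did. The call of NV2.8261 was lost in 4 of 22 alternatives, among them those without Ncol3-negative replicate 1 or 2 or Ncol3-positive replicate 4.

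The spread within Ncol3-positive cells, as the SD of log2(CPM + 1) over 4 libraries, had a median of 0.65 over the members. It was smallest for NV2.18780 (0.23), NV2.11615 (0.24) and NV2.2739 (0.25). NV2.2739 was at 69.3, 61.4, 86.4 and 87.4 CPM in Ncol3-positive and at 16.1, 15.4, 15.1 and 20.9 CPM in Ncol3-negative libraries, so its log2 fold change of 2.10 had a small SE of 0.16. The spread was largest for NV2.5190 (1.36), NV2.23584 (1.22) and NV2.3135 (1.17). NV2.5190 was at 30.3, 29.5, 144 and 170.1 CPM in Ncol3-positive and at 2.23, 2.14, 9.42 and 9.83 CPM in Ncol3-negative libraries. Its replicates 3 and 4 exceeded replicates 1 and 2 in both gates.

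Some members carried consecutive ID numbers: 28 of the 150 had another member at the next or previous number, in 16 pairs and in runs of at most 3. The sources used here do not say whether numbers follow position in the genome, and how reads shared by overlapping or near-identical genes were counted is not known, so such pairs may not be independent. NV2.9989 was at 342, 301, 999 and 1006 CPM in Ncol3-negative and at 1369, 1558, 2792 and 3439.6 CPM in Ncol3-positive libraries. It moved with NV2.9990, and the ratio of NV2.9990 to NV2.9989 stayed between 1.15 and 1.38 in all 18 libraries. The run NV2.25609, NV2.25610 and NV2.25611 differed between the Ncol3 gates by 1.92 (SE 0.25), 1.77 (SE 0.29) and 1.86 (SE 0.29) on the log2 scale, and between the Nep3 gates by 0.02, 0.04 and 0.03. NV2.25610 was at 251, 325, 462 and 579.9 CPM in Ncol3-negative libraries and at 1209, 905, 1831 and 1907 CPM in the positive ones. In the Nep3 line, which reached above the Ncol3-negative range in 3 libraries, it was at 488 ± 127 CPM in negative and 517 ± 138 CPM in positive libraries (SD; n = 5 in each group). NV2.9119 and NV2.9120 are also consecutive but differed in response, with 1.63 (SE 0.31) and 4.21 (SE 0.41) between the Ncol3 gates on the log2 scale.

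The scaling bears on all these values. With library size alone, the median over all genes of the log2 fold change between the Ncol3 gates moved from −0.05 to −0.72, and the share of higher among all calls from 53.1% to 11.5%. The median of the members moved with it, from 1.85 to 1.09, so relative to all genes it was 1.91 and 1.80 higher. Under that scaling 79 genes met the rule, all 79 among the 150 members. Between the positive populations the median of all genes moved from 0.11 to 0.56, with 55.7% and 82.9% of calls higher in Nep3-positive cells, and that of the members from −1.70 to −1.13. Between the negative populations it moved from 0.02 to −0.21, with 60.3% and 37.9% of calls higher in Nep3-negative cells, and for the members from 0.52 to 0.28. In the interaction it moved from 0.15 to 0.84, with 48.6% and 86.9% of calls toward a larger difference in the Nep3 line, and for the members from −2.09 to −1.31. The median of the members kept its sign in all 3.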

How the data were processed

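Per the deposited values, the authors' table holds unnormalized whole-number counts for 18 libraries, whose totals differ. Trimmomatic, STAR 2.7.10a and featureCounts 2.0.1 are named in the submitters' processing notes, without role or order. Genome build, annotation release and strand setting are not given in the sources used here. Groups and replicate numbers came from sample titles; the descriptions of the Nep3-positive libraries all give the number 1, and the series text gives 4 replicates per group, so the 5 replicates of the Nep3 line rest on titles.

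CPM was computed with TMM factors over the 23764 NV2 genes with any count. Differences were tested with edgeR 4.0.16 (R 4.3.3): filterByExpr left 18976 genes, and all 18 libraries entered 1 robust quasi-likelihood fit with 4 group means (common biological coefficient of variation 25.4%). Tests were two-sided, with Benjamini-Hochberg adjustment over all genes and a threshold of 0.05. The SE is the log2 fold change divided by the square root of F. For genes chosen in some replicates, scaling, rule and fit were recomputed in each subset. The code was tested on simulated data.

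Members, gene groupings and tests were chosen with earlier results of these data known. Named members had the 8 largest Ncol3 differences, the 6 highest Ncol3-positive levels, or extreme values of the other comparisons; exceptions are stated. The planned cell type markers could not be matched to IDs, and mOrange2 checks only the sort gates. Repeated deposits were looked for in 32 pairs of replicates; chi-square per degree of freedom was at least 6.54, above sampling noise. Alternatives were other scalings, filters, pseudocounts and limits of the rule, DESeq2 1.42.0, the replicate number as a block, and leaving out libraries.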

Additional observations from a re-analysis of the deposited data

Results flagged for a closer look

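In 133 members the difference between gates differed between the lines by the interaction test (edgeR, adjusted p under 0.05), which the rule that chose them favours. Single libraries stood apart from their group, by the gap to the nearest library relative to the range, in 13 of 176 tests. Chance would flag about 1 in 20 if genes were not chosen by their values. Many of these genes were named for extreme values and all share the same libraries, so nothing is read from the count.

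Nep3-negative replicate 5 was the highest of its group and apart for 5 genes. It was at 52.5 CPM for NV2.13261 with the next library at 31.1 CPM, and at 27.9 against 16.4 CPM for NV2.3485. It was at 73.0 against 36.0 CPM for NV2.8260, at 62.4 against 40.9 CPM for NV2.11615, and at 99.9 against 54.1 CPM for NV2.10470. The same library had the highest summed level of the members in the Nep3 line (15352 CPM).

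In the Ncol3 line, Ncol3-negative replicate 4 was at 117 CPM for NV2.18396 with the next library at 9.33 CPM. Ncol3-positive replicate 4 was at 107 against 62.0 CPM for NV2.12537 and at 139 against 95.4 CPM for NV2.8260. Nep3-negative replicate 4 was at 604 against 433 CPM for NV2.14941.

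Among Nep3-positive libraries, replicate 2 was at 472 against 370.4 CPM for NV2.14941 and at 15.2 against 7.84 CPM for NV2.6698. Replicate 4 was at 12.7 against 6.65 CPM for NV2.18396. Replicate 1 was the lowest for NV2.18638, at 4.92 against 9.90 CPM.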

How the results depend on the processing

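Of 84 counts and summed or reporter values recomputed under other settings, 73 stayed within the limit (1.5 times for counts). The rule gave 79 genes with library size only, 187 with Ncol3 replicates 1 and 2 only and 204 with a Nep3 limit of 0.3, instead of 328. With library size only, 84 of 119 and 61 of 62 genes chosen in one set of replicates passed in the other, instead of 133 and 141 of 150. The members called between the Nep3 gates numbered 30 and 27 with only Ncol3 replicates 1 and 2 or 3 and 4, and 25 with only the groups compared, instead of 9. Between the negative populations they numbered 79 and 22 with these pairs, instead of 35. The cause of these changes was not tested. The comparison of replicates with library size only was chosen after seeing the data. Shares of all genes called under other settings are not given in this section, so its counts show only how the numbers moved.

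With 1 library left out, the rule gave 239 to 418 genes, of whose first 150 between 129 and 144 were members. Calls among the members ranged from 139 to 150 (Ncol3), 3 to 10 (Nep3), 122 to 145 (interaction), 145 to 150 (positive populations) and 12 to 39 (negative populations). The log2 ratio of summed levels ranged from 1.77 to 2.27 and from −0.10 to 0.07, and mOrange2 from 1.502 to 1.89 and from 2.83 to 3.55, in the Ncol3 and Nep3 lines.

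Same-numbered gates of a line deviated together by a mean correlation of 0.19 (0.03 to 0.30) in the Ncol3 and 0.14 (−0.03 to 0.33) in the Nep3 line. This neither shows nor excludes that numbers pair the samples, and the main fit did not take them as pairs. With the replicate number as a block, 149, 26 and 149 members were called in the Ncol3, Nep3 and interaction tests. In both directions, 1 of 4 Ncol3 and 3 of 5 Nep3 numbers matched best.

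Of 924 Ncol3 log2 fold changes of the 42 named genes, 893 kept their direction and side of the threshold, 25 lost the call, 5 gained it and 1 reversed: NV2.18396 was at −0.090 with library size only. NV2.12537 lost its call in 13 of 22 alternatives and NV2.10343 in 5.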
